A study of Homo sapiens with 17 samples.

Results

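The 49 genes described here are interferon-stimulated antiviral genes and their STAT and IRF regulators, out of 60664 genes in the table. They were chosen by name, from a list written after earlier results of AZD5153 treatment in these libraries were known, so their difference between AZD5153 and DMSO is given as a description and supports nothing. Levels are normalized counts, that is, reads on a gene after division by a scaling factor for each library. Averaged over the 12 libraries, 40 of the 49 and 15599 genes in all reached the minimum of 10 needed for testing. The cells were SF8628, an established histone H3-mutant DMG (diffuse midline glioma) line grown in serum, and all of them received either the solvent DMSO or 1 µM AZD5153, an inhibitor of BET bromodomains. The 4 groups were DMSO 24 hours, DMSO 48 hours, AZD5153 24 hours and AZD5153 48 hours, with 3 replicate libraries each. All came from 1 cell line at 1 dose, and the labels name no interferon treatment. Reads on genes ranged from 15759148 to 27335220 per library. DMSO 24 hour replicate 1 stood apart: a chi-square of its gene counts gave 15.2 and 22.9 per degree of freedom against the other 2 replicates, which gave 4.67 between them. It enters each comparison that uses DMSO at 24 hours.

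Interferons are signalling proteins that cells release when they sense viral nucleic acid. Type I interferons bind receptors at the cell surface, the kinases JAK1 and TYK2 then phosphorylate STAT proteins, and STAT2 with a STAT partner and IRF9 binds a promoter element called the ISRE. Interferon-gamma acts through a different element, the GAS, and through IRF1. The genes so induced sense viral RNA, degrade or sequester it, block virus entry, or attach the small protein ISG15 to other proteins, and many tumor cell lines express a part of them without added interferon. BET proteins bind acetylated histones at promoters and enhancers and recruit the machinery for transcription elongation.

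The promoters are shown first, because the ISRE is what many of these genes have in common and the rule did not use it. RefSeq promoters (build GRCh38.p14, 250 bases before to 50 after the gene start) were found for 40 of the 49 genes. The letters searched on both strands were GAAA, any 2 bases and GAAA, named the ISRE core below. This core was in 24 of the 40 promoters (60.0%), in 3.65% of all 27305 promoters and in 2.87% of those of tested genes. Followed by CT, it was in 16 of the 40 and in 0.271% of all promoters. The GAS, searched as TTC, any 3 bases and GAA, was in 12 of the 40 (30.0%) and in 7.88% of all promoters. The windows below are printed 5′ to 3′ on the strand of the gene, with the core in capitals, for members that were strongly lower with AZD5153 (*IFIT3*, *IFI44*) or less so (*PARP14*, *IFITM3*, *HERC5*), for those that were higher at 24 hours with AZD5153 (*ISG15*, *IFI6*) and for *IFI27* and *CXCL10*, which were under the minimum mean with 76 and 11 reads in all. All lie before the RefSeq gene start and outside the exons of GENCODE 44. TTTC, 2 bases and TTTC is the core read on the opposite strand.
IFIT3, chr10:89327821-89327904, plus strand: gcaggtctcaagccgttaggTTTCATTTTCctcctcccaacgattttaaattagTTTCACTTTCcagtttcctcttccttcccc
IFI44, chr1:78649751-78649788, plus strand: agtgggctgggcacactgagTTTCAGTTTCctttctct
PARP14, chr3:122680790-122680838, plus strand: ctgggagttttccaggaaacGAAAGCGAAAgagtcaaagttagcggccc
IFITM3, chr11:320866-320932, minus strand: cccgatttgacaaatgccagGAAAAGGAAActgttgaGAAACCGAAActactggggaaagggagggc
HERC5, chr4:88456974-88457074, plus strand: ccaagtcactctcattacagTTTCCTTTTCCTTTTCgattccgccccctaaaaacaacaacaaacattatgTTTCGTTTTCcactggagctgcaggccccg
ISG15, chr1:1013364-1013419, plus strand: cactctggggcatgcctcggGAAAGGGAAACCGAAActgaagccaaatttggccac
IFI6, chr1:27672256-27672368, minus strand: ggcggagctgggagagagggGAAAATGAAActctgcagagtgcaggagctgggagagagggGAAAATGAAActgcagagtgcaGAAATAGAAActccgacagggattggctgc
IFI27, chr14:94110608-94110670, plus strand: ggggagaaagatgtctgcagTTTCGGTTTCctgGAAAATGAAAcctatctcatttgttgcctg
CXCL10, chr4:76023689-76023738, minus strand: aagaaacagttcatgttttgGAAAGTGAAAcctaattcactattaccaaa

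Only promoters that hold a core are printed, and among these were genes lower and genes higher with AZD5153. *IFI6*, which was higher with AZD5153, held 3 cores, and *IFIT3*, which was lower, held 2. The promoters of *RSAD2*, *SAMHD1* and *STAT2* held none, which says only that these letters are not in those windows. Among the tested members the 20 with a core had a median log2 fold change with AZD5153 over both times of -1.78 (from -4.60 to 1.17), and the 12 without had -1.03 (from -6.02 to 1.95). With the longer form that ends in CT the order of the medians was the opposite, -1.54 for the 13 with it and -1.71 for the 19 without. The ranges overlapped nearly throughout.

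**Figure D1:**
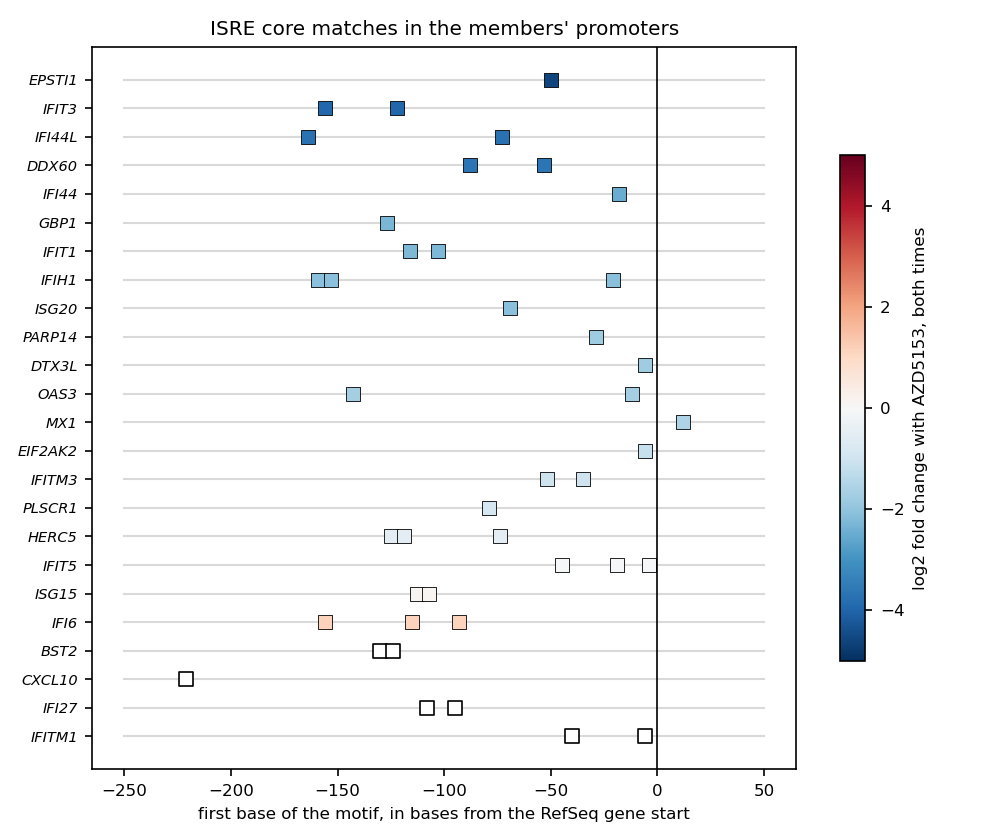
Position of the ISRE core in the 24 promoters that hold it, as the first base of each match in bases from the RefSeq gene start (x axis), with genes ordered by their log2 fold change with AZD5153 over both times (color; open squares are genes under the mean of 10). The *IFI6* promoter, in pale red, holds 3 matches, and *EPSTI1*, in the darkest blue, holds 1.

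AZD5153 against DMSO asks what BET bromodomain inhibition did to these transcripts. Of the 40 tested members, limma called 34 lower and 4 higher at 24 hours at an adjusted p under 0.05. It called 36 lower and 2 higher at 48 hours. Of those lower, 4 had AZD5153 means under 10 at both times and were tested only through DMSO (*RSAD2*, *CMPK2*, *TRIM22* and *EPSTI1*). Over all genes, 34.6% were lower and 33.9% higher at 24 hours, and 33.9% were lower and 33.1% higher at 48 hours. As the list was written with this comparison known, nothing is read from that contrast. The median log2 fold change of the 40 was -1.64 at 24 hours and -1.87 at 48 hours, while the median of all tested genes was 0.000373 and 0.00108. The members higher at both times were *SAMHD1* and *IFI6*, and those higher at 24 and lower at 48 hours were *ISG15* and *STAT2*. *IFIT5* passed the threshold at neither time, *USP18* did not at 24 hours and *ADAR* did not at 48 hours. In these bulk libraries fewer cells that express a gene and less RNA per cell cannot be told apart. The normalized counts of the 40 tested genes summed to between 41026 and 43282 per library in DMSO at 24 hours and to between 26332 and 27324 in AZD5153. At 48 hours the sums lay between 46958 and 48552 in DMSO and between 24893 and 25593 in AZD5153.

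**Figure D2:**
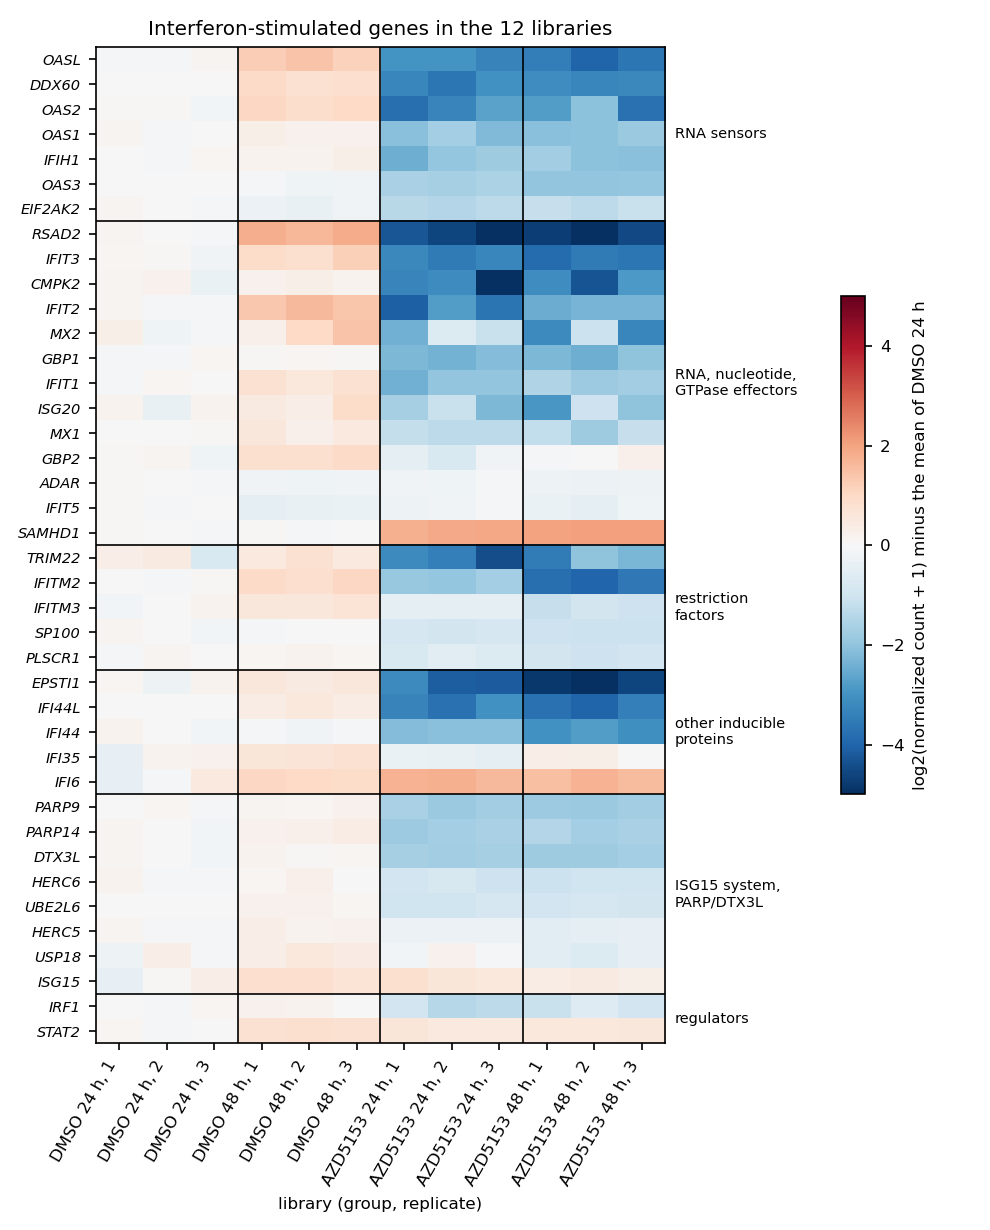
log2(normalized count + 1) of the 40 tested members (rows, grouped by role) in each of the 12 libraries (columns), minus the mean of the 3 DMSO 24 hour libraries, with colors ending at -5 and 5. The AZD5153 columns are blue for most genes and red for *SAMHD1* and *IFI6*, and the DMSO 48 hour columns are red for *RSAD2*, *IFIT2* and *OASL*.

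The cells were checked against their labels. Of 9 glial and glioma markers, *SOX2*, *NES*, *VIM*, *CSPG4*, *CD44*, *GFAP* and *S100B* passed the mean of 10, *OLIG2* had 0 reads in every library and *PDGFRA* had group means of 1.54 to 4.42 normalized counts. Several moved with treatment: by limma the log2 fold change at 24 and 48 hours was -1.43 and -1.87 for *NES*, -2.23 and -1.76 for *CSPG4* and -0.60 and -0.30 for *SOX2*, all lower, and 0.17 and 0.53 for *CD44*, higher. *VIM* was lower at 24 hours alone (-0.28), and *GFAP* and *S100B* passed at neither time. The part of these changes in the results was not tested. Among the immune cell markers, *AIF1*, *TYROBP* and *CD3E* had 0 reads in all libraries and the pan-leukocyte gene *PTPRC* had group means of 0.362 to 2.48. At 24 hours *CSF1R*, a macrophage receptor, was at 189 ± 19 normalized counts (SD, n = 3) in DMSO and lower in AZD5153 at 27.9 ± 6.1 (limma adjusted p = 8.2e-09). At 48 hours it was at 197 ± 18 and 34.9 ± 9.3 (limma adjusted p = 2.6e-08). The monocyte marker *CD14* did not pass the threshold, at 12.0 ± 6.5 in DMSO and 16.9 ± 0.70 in AZD5153 at 24 hours (limma adjusted p = 0.32) and at 12.9 ± 4.6 and 12.8 ± 9.4 at 48 hours (limma adjusted p = 0.77). *CSF1R* carried most of the summed level of the immune markers, which was 183 to 231 in the DMSO libraries and 38.3 to 58.7 in the AZD5153 libraries. The part of such cells in the results was not tested.

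The RNA sensors recognize viral RNA or are switched on by it. All 7 tested sensors of 8 were lower at both times, beside 34.6% of all genes at 24 hours and 33.9% at 48 hours, with a median log2 fold change of -2.06 and -2.24. As for the whole list, nothing is read from these counts by role. *OASL*, an OAS-like protein that lacks the oligoadenylate activity of its relatives, had 361, 367 and 424 normalized counts in DMSO at 24 hours and 895, 1026 and 850 at 48 hours. AZD5153 libraries had 46.9, 47.1 and 36.7 at 24 hours and 33.7, 22.8 and 30.0 at 48 hours. No AZD5153 library reached a DMSO library, and the group mean was 8.80-fold lower at 24 hours and 32.0-fold lower at 48 hours (log2 fold change -3.11 ± 0.16 and -4.97 ± 0.16, SE, n = 3 per group).

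*DDX60*, a helicase that acts with RIG-I-like receptors, had 991, 960 and 950 normalized counts in DMSO at 24 hours and 1855, 1638 and 1722 at 48 hours. The AZD5153 libraries held 99.2, 78.8 and 118 at 24 hours and 112, 100.0 and 103 at 48 hours. The groups were far apart, 9.82-fold at 24 hours and 16.5-fold at 48 hours (log2 fold change -3.30 ± 0.12 and -4.03 ± 0.12). *OAS2*, an oligoadenylate synthetase that activates RNase L, had 145, 145 and 127 in DMSO at 24 hours and 289, 258 and 276 at 48 hours. The AZD5153 values were 9.39, 13.3 and 20.8 at 24 hours and 19.1, 32.6 and 9.41 at 48 hours. Its AZD5153 libraries were low and uneven, and did not overlap with DMSO (log2 fold change -3.24 ± 0.34 and -3.84 ± 0.34).

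The other sensors were less reduced. *OAS1* was 4.00-fold and 4.75-fold lower, *IFIH1* (the sensor MDA5) 4.11-fold and 4.46-fold, *OAS3* 3.07-fold and 3.47-fold, and the RNA-activated kinase gene *EIF2AK2* (PKR) 2.63-fold and 1.90-fold at 24 and 48 hours. *RIGI*, the sensor RIG-I, had only 20 to 41 reads per group over 3 libraries and was not tested, and 43.2% of its exon bases are shared on the same strand with another annotated gene. That other gene had a mean of 0.0. A read in such bases can belong to both genes, and what that did to the count of *RIGI* was not tested.

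The 13 RNA, nucleotide and GTPase effectors were all tested. The 24 hour comparison had 11 lower and 1 higher (median -1.67), and the later one had 10 lower and 1 higher (median -2.38), beside the same shares over all genes and 33.9% and 33.1% higher. *RSAD2* (viperin, an enzyme that makes a chain-terminating nucleotide) had the largest decrease of the list. It had 134, 118 and 111 normalized counts in DMSO at 24 hours and 431, 386 and 443 at 48 hours. The treated libraries had 5.36, 4.10 and 1.22 at 24 hours and 3.65, 0 and 4.28 at 48 hours. Each of the AZD5153 groups held 9 reads in its 3 libraries together, against 410 and 1324 in DMSO. The group means differed 34.0-fold at 24 hours and 159-fold at 48 hours (log2 fold change -4.87 ± 0.52 and -7.18 ± 0.52, the latter from a scale that adds 1 to each value and has 1 library at 0). The 48 hour value of *RSAD2* was -6.41 without AZD5153 replicate 2, the library at 0, and ran from there to -7.61 when other libraries were left out. With a pseudocount of 10 it was -5.10. *CMPK2*, its divergently placed neighbor, which supplies nucleotides and shares 351 exon bases with it on the opposite strand, was 16.4-fold and 13.5-fold lower.

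The IFIT proteins bind the ends of viral RNA. *IFIT3* had 561, 547 and 455 normalized counts in DMSO at 24 hours and 981, 917 and 1170 at 48 hours. Under AZD5153 the level was 55.0, 44.03 and 53.9 at 24 hours and 35.6, 43.5 and 41.9 at 48 hours. Every AZD5153 library was below every DMSO library, with group means 10.2-fold and 25.4-fold apart (log2 fold change -3.33 ± 0.14 and -4.63 ± 0.14). *IFIT2* had 270, 230 and 234 in DMSO at 24 hours and 627, 747 and 643 at 48 hours. After AZD5153 the values were 13.4, 34.8 and 18.4 at 24 hours and 42.9, 47.8 and 47.9 at 48 hours. Its level was thus low at both times with AZD5153, 11.0-fold and 14.6-fold under DMSO, and higher at 48 than at 24 hours in either treatment (log2 fold change with AZD5153 -3.51 ± 0.24 and -3.83 ± 0.24). *IFIT1* was 4.31-fold and 5.21-fold lower. *IFIT5* overlapped between the treatments at both times (log2 fold change -0.16 ± 0.09 and 0.05 ± 0.09), although its promoter held 3 ISRE cores.

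Among the other effectors, the dynamin-like GTPase *MX1* was 2.41-fold and 3.53-fold lower, *MX2* 2.47-fold and 9.59-fold, the guanylate-binding protein *GBP1* 4.81-fold and 4.91-fold, *GBP2* 1.38-fold and 1.74-fold, and the exonuclease *ISG20* 3.17-fold and 5.41-fold. *MX2* was sparse, with 36 and 20 reads in the AZD5153 groups. *GBP2* overlapped between treatments at 24 hours. *ADAR*, an RNA-editing enzyme and by reads the most abundant member, moved little (log2 fold change -0.17 ± 0.04 at 24 hours and -0.08 ± 0.04 at 48 hours).

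*SAMHD1*, which hydrolyses dNTPs and so limits reverse transcription, went the other way. It had 582, 558 and 529 normalized counts in DMSO at 24 hours and 585, 528 and 564 at 48 hours. In AZD5153 it had 1929, 2072 and 2113 at 24 hours and 2238, 2286 and 2308 at 48 hours. All 6 AZD5153 libraries were above all 6 DMSO libraries, by 3.66-fold and 4.08-fold (log2 fold change 1.87 ± 0.06 and 2.03 ± 0.06). The gene shares 9.9% of its exon bases with the gene *TLDC2* on the opposite strand, whose own mean was 2.6.

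Restriction factors stop viruses at membranes or in the nucleus. All 5 tested of 7 were lower at both times (all genes 34.6% and 33.9%), with medians of -0.87 and -1.64. Of these, *TRIM22* passed the minimum mean only through its DMSO libraries. *IFITM2*, a membrane protein that hinders virus fusion, had 233, 229 and 246 normalized counts in DMSO at 24 hours and 463, 419 and 487 at 48 hours. With AZD5153 it had 63.0, 60.4 and 71.0 at 24 hours and 16.4, 14.1 and 18.8 at 48 hours. The 4 groups did not overlap at all, and the gap to DMSO was 3.64-fold at 24 hours and 27.7-fold at 48 hours (log2 fold change -1.85 ± 0.15 and -4.72 ± 0.15). Its relative *IFITM3* had 2355, 2508 and 2867 in DMSO at 24 hours and 3815, 3753 and 4138 at 48 hours. AZD5153 libraries had 1888, 1846 and 1837 at 24 hours and 1146, 1343 and 1267 at 48 hours. It showed the same order of the groups with smaller gaps of 1.39-fold and 3.12-fold (log2 fold change -0.47 ± 0.07 and -1.64 ± 0.07). The IFITM genes are close in sequence, and reads that fit more than 1 of them could have been left out in the authors' counting. What this did to their counts was not tested.

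*PLSCR1*, a phospholipid scramblase, was 1.59-fold and 2.13-fold lower, and *SP100*, a protein of nuclear bodies, 1.83-fold and 2.04-fold. *TRIM22*, the member just above the minimum mean, at 14.2, was 27.9-fold and 10.8-fold lower on 2 and 9 reads in the AZD5153 groups. *BST2* (tetherin) was just under the minimum mean, at 9.71, and *IFITM1* was at 7.37. *BST2* had 29 and 80 reads in DMSO at 24 and 48 hours against 2 and 14 in AZD5153, and *IFITM1* had 25 and 53 against 5 and 13. For both, the libraries overlapped at 24 hours and were apart at 48 hours.

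Of 7 further interferon-inducible proteins, 5 were tested, and 4 were lower and 1 higher at each time (all genes 34.6% and 33.9% lower, 33.9% and 33.1% higher). *EPSTI1* had 113, 87.5 and 119 normalized counts in DMSO at 24 hours and 159, 145 and 158 at 48 hours. The AZD5153 libraries held 10.7, 5.12 and 4.90 at 24 hours and 2.74, 2.17 and 3.42 at 48 hours. The AZD5153 groups held 17 and 9 reads, and the means were 15.4-fold and 55.4-fold lower (log2 fold change -3.83 ± 0.31 and -5.37 ± 0.31). *IFI44L* had 350, 353 and 341 in DMSO at 24 hours and 449, 500.0 and 451 at 48 hours. The AZD5153 values were 33.5, 25.6 and 41.6 at 24 hours and 25.5, 20.6 and 31.7 at 48 hours. Its groups were 10.4-fold and 18.0-fold apart (log2 fold change -3.36 ± 0.18 and -4.14 ± 0.18). Next to it on chromosome 1, *IFI44* had 2040, 1814 and 1636 in DMSO at 24 hours and 1750, 1614 and 1718 at 48 hours. The treated libraries had 410, 430 and 422 at 24 hours and 220, 262 and 217 at 48 hours. *IFI44* was thus more abundant and less reduced than *IFI44L*, 4.35-fold and 7.28-fold (log2 fold change -2.11 ± 0.09 and -2.86 ± 0.09). *IFI35* was 1.33-fold and 1.36-fold lower and overlapped at 24 hours through DMSO replicate 1, at 373 against 559 and 565 in the other two.

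*IFI6*, a protein of the endoplasmic reticulum and mitochondria, was higher with AZD5153. It had 100.3, 124 and 186 normalized counts in DMSO at 24 hours and 271, 263 and 248 at 48 hours. Under AZD5153 the level was 440, 462 and 404 at 24 hours and 373, 441 and 401 at 48 hours. DMSO was uneven at 24 hours, with replicate 1 lowest, yet every AZD5153 library was above every DMSO library at both times. The group means differed 3.18-fold at 24 hours and 1.55-fold at 48 hours (log2 fold change 1.71 ± 0.17 and 0.63 ± 0.17, and 1.51 at 24 hours without DMSO replicate 1). A long noncoding gene on the same strand, *LINC02574*, shares 23.1% of the exon bases of *IFI6*, and its own mean was 0.6.

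ISG15 is conjugated to proteins through UBE2L6 and HERC5 and removed by USP18, and PARP9 with DTX3L and PARP14 modify proteins by ADP-ribose or ubiquitin. Of these genes and *HERC6*, 8 in all, 6 were lower and 1 higher at 24 hours. The 48 hour comparison found all 8 lower, and the medians were -0.94 and -1.11 at 24 and 48 hours. Over all genes 34.6% were lower and 33.9% higher at 24 hours, and 33.9% lower at 48 hours. *ISG15* itself had 356, 496 and 588 normalized counts in DMSO at 24 hours and 852, 846 and 749 at 48 hours. After AZD5153 the values were 818, 716 and 673 at 24 hours and 608, 643 and 583 at 48 hours. It stood above DMSO at 24 hours, 1.53-fold, and below it at 48 hours, 1.33-fold, with no overlap at either time (log2 fold change 0.64 ± 0.14 and -0.41 ± 0.14). Without DMSO replicate 1 the value at 24 hours was 0.44. The 48 hour call was lost without AZD5153 replicate 3 or DMSO replicate 1 (-0.38 in either case).

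The ADP-ribose and ubiquitin group was the more strongly reduced. *PARP9* was 3.32-fold and 3.91-fold lower, *DTX3L* 3.22-fold and 3.66-fold and *PARP14* 3.28-fold and 3.64-fold, at 24 and 48 hours. *PARP9* and *DTX3L* start next to each other and share 139 exon bases on opposite strands. The ISG15 enzymes and *HERC6* were less reduced, with *UBE2L6* 1.94-fold and 2.11-fold lower, *HERC6* 1.91-fold and 2.22-fold, and *HERC5* 1.23-fold and 1.66-fold. *USP18*, which also dampens receptor signaling, overlapped at 24 hours (log2 fold change 0.01 ± 0.18) and was 1.98-fold lower at 48 hours.

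Of the 4 regulators, *STAT2* and *IRF1* reached the minimum mean. *STAT2* had 1796, 1596 and 1698 normalized counts in DMSO at 24 hours and 2887, 2988 and 2859 at 48 hours. In AZD5153 it had 2588, 2408 and 2348 at 24 hours and 2420, 2428 and 2501 at 48 hours. It was above DMSO at 24 hours, 1.44-fold, and below it at 48 hours, 1.19-fold, with no overlap (log2 fold change 0.53 ± 0.06 and -0.25 ± 0.06). *IRF1*, an activator at ISRE-like sites, had 186, 182 and 203 in DMSO at 24 hours and 222, 217 and 191 at 48 hours. With AZD5153 it had 96.5, 69.6 and 77.1 at 24 hours and 86.6, 123 and 98.4 at 48 hours. It was 2.35-fold and 2.05-fold lower without overlap (log2 fold change -1.23 ± 0.16 and -1.04 ± 0.16). The antisense gene *IRF1-AS1* shares 22.9% of its exon bases and had a mean of 18.8.

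*IRF9*, the DNA-binding partner of STAT2, was just under the minimum mean, at 9.27. It had 4.51, 9.25 and 7.13 normalized counts in DMSO at 24 hours, 15.3, 11.5 and 21.6 in DMSO at 48 hours, 9.39, 5.12 and 8.57 in AZD5153 at 24 hours and 5.47, 6.52 and 6.84 in AZD5153 at 48 hours. The DMSO 48 hour libraries were the highest. A protein-coding gene on the same strand shares 23.9% of its exon bases and had a mean of 5.3, and what this did to the count was not tested. *IRF7*, the regulator that amplifies interferon induction, was nearly silent, with 0, 2.85 and 0 in DMSO at 24 hours, 0, 2.66 and 4.32 in DMSO at 48 hours, 0, 2.05 and 1.22 in AZD5153 at 24 hours and 8.21, 3.26 and 0 in AZD5153 at 48 hours. The groups overlapped throughout.

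The T cell-attracting chemokines were at the detection limit. *CXCL10* had 1 and 10 reads in DMSO at 24 and 48 hours and 0 in either AZD5153 group, and *CXCL11* had 0 and 7 reads against 0 and 0. *XAF1*, an apoptosis-linked protein, had 4 reads in all, from DMSO at 48 hours, and *IFI27* had 20 and 44 reads in DMSO against 2 and 10 in AZD5153. A count of 0 allows up to 3 reads, so no fold is given for *CXCL10*, *CXCL11* and *XAF1*.

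**Figure D3:**
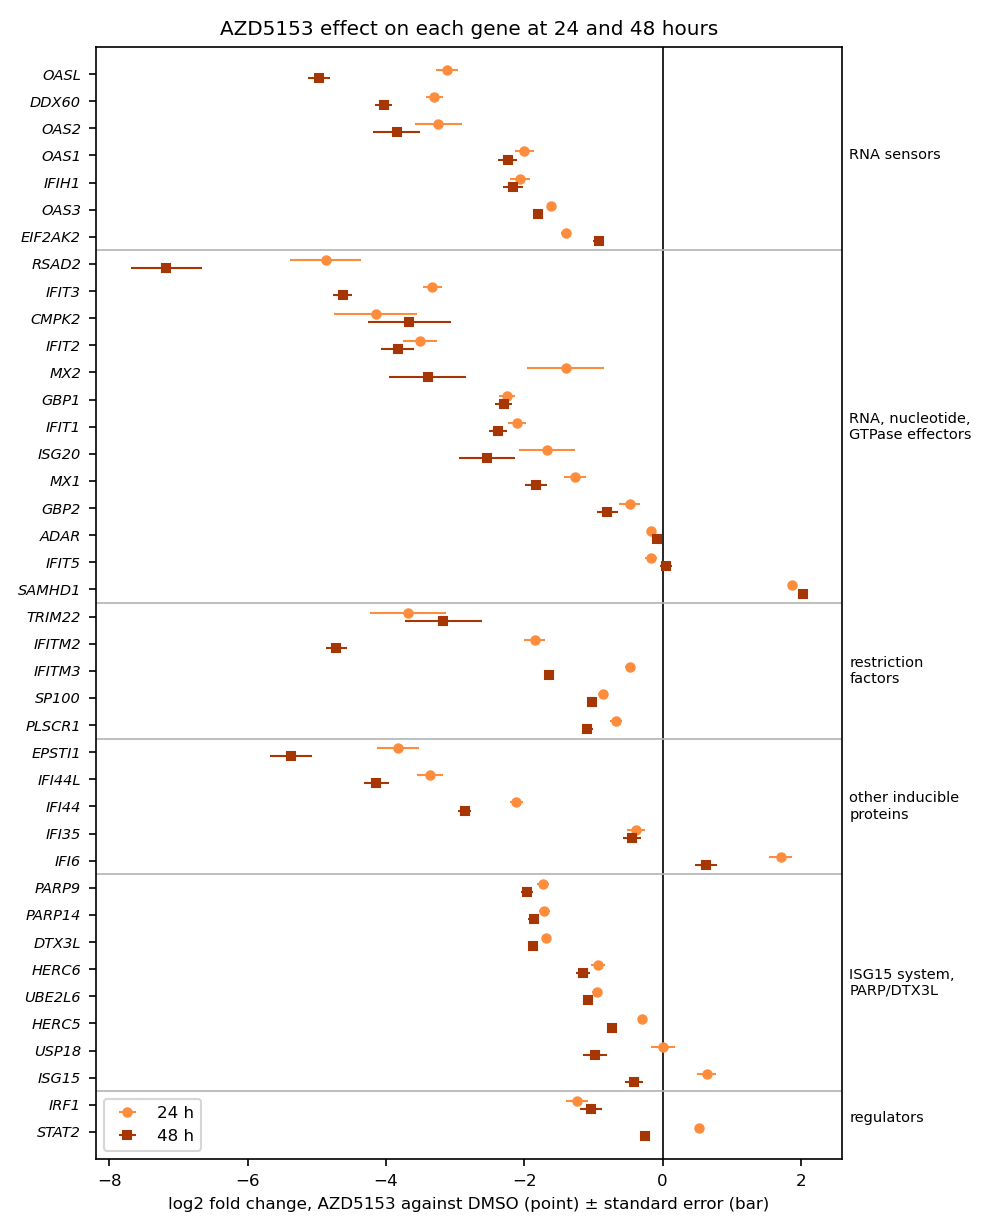
log2 fold change of AZD5153 against DMSO (x axis) at 24 hours (circles) and 48 hours (squares) with its standard error (bars) for the 40 tested members, grouped by role. *RSAD2* lies farthest left at -4.87 and -7.18, *SAMHD1* farthest right at 1.87 and 2.03, and *ISG15* and *STAT2* lie on either side of 0 at the 2 times.

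Many of these genes are neighbors, and 24 of the 49 lie within 100000 bases of another member, in 10 clusters. Neighbors differed in how far they moved. In the IFIT cluster (chr10:89283694-89421605, GRCh38) the log2 fold change with AZD5153 over both times was -3.67 for *IFIT2*, -3.98 for *IFIT3*, -2.24 for *IFIT1* and -0.06 for *IFIT5*. In the OAS cluster (chr12:112905856-113011723) it was -2.12 for *OAS1*, -1.71 for *OAS3* and -3.54 for *OAS2*. In the IFITM cluster (chr11:303655-329475) it was -3.28 for *IFITM2* and -1.05 for *IFITM3*. *GBP1* and *GBP2* on chromosome 1 had -2.28 and -0.64, *HERC6* and *HERC5* on chromosome 4 had -1.04 and -0.51, and *PARP9* and *DTX3L* on chromosome 3 were alike at -1.85 and -1.78.

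Levels between genes were compared per kilobase of merged GENCODE 44 exons. In DMSO at 24 hours the highest members were *IFITM3* at 906 normalized counts per kilobase, *IFI44* at 898, *ADAR* at 813, *UBE2L6* at 717 and *ISG15* at 554. In AZD5153 at 48 hours the order was *ISG15* at 705, *ADAR* at 676, *IFITM3* at 440, *IFI6* at 433 and *UBE2L6* at 383. At 48 hours *IFI44* was at 831 in DMSO and 114 in AZD5153, and *IFI6* at 279 and 433. *RSAD2* was at 21.4 in DMSO at 24 hours, at 74.2 in DMSO at 48 hours and at 0.467 in AZD5153 at 48 hours.

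The change from 24 to 48 hours asks whether culture time moved the same genes. The members were chosen with earlier results of these libraries known, so the counts are not independent of that choice. In DMSO 18 of the 40 tested members were higher at 48 hours and 4 lower (*OAS3*, *EIF2AK2*, *IFIT5*, *ADAR*), while over all genes 16.4% were higher and 19.3% lower. The median of the 40 was 0.42 on the log2 scale (0.266 with a minimum mean of 100), and that of all tested genes was 0.0125. The largest increase of the 18 was that of *RSAD2*, 3.46-fold (log2 change 1.79 ± 0.52, limma adjusted p = 0.013), with all DMSO 48 hour libraries above all DMSO 24 hour libraries. *IFIT2* rose as well (1.45 ± 0.24, limma adjusted p = 0.00024) and *OASL* rose 2.41-fold (1.27 ± 0.16, limma adjusted p = 2.4e-05). *STAT2* rose 1.72-fold (0.78 ± 0.06, limma adjusted p = 1.3e-07), *IFITM3* 1.51-fold (0.60 ± 0.07, limma adjusted p = 1.9e-05), *IFIT3* 1.96-fold (0.97 ± 0.14, limma adjusted p = 7.8e-05) and *IFITM2* 1.93-fold (0.95 ± 0.15, limma adjusted p = 0.00015). *ISG15*, *IFI6*, *DDX60*, *IFIT1*, *GBP2*, *IFI35*, *OAS2*, *MX1*, *PARP14*, *HERC5* and *UBE2L6* were the others. The call of *OAS2* was lost when DMSO 24 hour replicate 2 or 3 or any DMSO 48 hour replicate was left out (limma adjusted p from 0.068 to 0.1). *SAMHD1* stayed at 1.00-fold (0.01 ± 0.06, limma adjusted p = 0.94). DMSO replicate 1 at 24 hours was the lowest of its group in *ISG15*, *IFI6* and *IFI35*, and without it 17 members were higher and 4 lower. Leaving out each of the 12 libraries in turn gave 14 to 18 higher, the fewest without DMSO 24 hour replicate 3. It gave 2 to 4 lower, the fewest without DMSO 48 hour replicate 2, and quantile normalization gave 1 lower.

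With AZD5153, 4 of the 40 were higher at 48 than at 24 hours and 10 lower, while over all genes 15.8% were higher and 13.8% lower. The 10 became 6 without AZD5153 48 hour replicate 2 or with scaling to 7 stable genes, and leaving out each library in turn gave 6 to 12. The median of the members was -0.09. *IFIT2* rose 2.08-fold (1.13 ± 0.24, limma adjusted p = 0.0022), as did *IFIT1*, *GBP2* and *IFI35* by 1.34-fold to 1.53-fold. *IFITM2* fell 3.94-fold (log2 change -1.92 ± 0.15, limma adjusted p = 1.7e-07), *IFI44* 1.81-fold (-0.86 ± 0.09, limma adjusted p = 4.1e-06) and *IFITM3* 1.48-fold (-0.57 ± 0.07, limma adjusted p = 3.3e-05). *OASL* fell 1.51-fold (-0.59 ± 0.16, limma adjusted p = 0.011), a call that was lost without AZD5153 48 hour replicate 2 (limma adjusted p = 0.054). *EPSTI1*, *OAS3*, *PLSCR1*, *SP100*, *HERC5* and *USP18* were the other members lower at 48 hours. At 6.91 and 2.78, the AZD5153 means of *EPSTI1* lay under the minimum of 10, so it was tested only through DMSO. Nothing is read from its fall. The call of *EPSTI1* was lost without AZD5153 24 hour replicate 1 or 48 hour replicate 2 and in 5 other settings, edgeR and DESeq2 among them.

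The AZD5153 effect at 48 hours minus that at 24 hours is built from the contrasts known when the list was written, so it is given as a description, and nothing is read from its counts. It passed the threshold below 0 for 15 of the 40 members and above 0 for 1, while over all genes 10.1% passed below 0 and 14.4% above 0. The median of the members was -0.33 and that of all genes 0.00161. *IFITM2* had the largest difference, -2.87 ± 0.21, from a rise in DMSO and a fall in AZD5153. *IFITM3* had -1.17 ± 0.10, *STAT2* -0.78 ± 0.08 and *OASL* -1.85 ± 0.22. For *STAT2* all of it lay in DMSO, since in AZD5153 it changed by 0.00 ± 0.06 between the times. *IFIT3* had -1.30 ± 0.20 and *IFI44* -0.75 ± 0.13. In *IFI44*, as in *PLSCR1* and *USP18*, the change with time passed the threshold in AZD5153, downward, and not in DMSO (*IFI44* in DMSO -0.11 ± 0.09, limma adjusted p = 0.38). The member past the threshold above 0 was *EIF2AK2*, 0.47 ± 0.11, the kinase less reduced at 48 hours. *RSAD2* had -2.30 ± 0.73, a value that rests on 9 reads per AZD5153 group and lost the threshold when any of 6 libraries was left out.

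**Figure D4:**
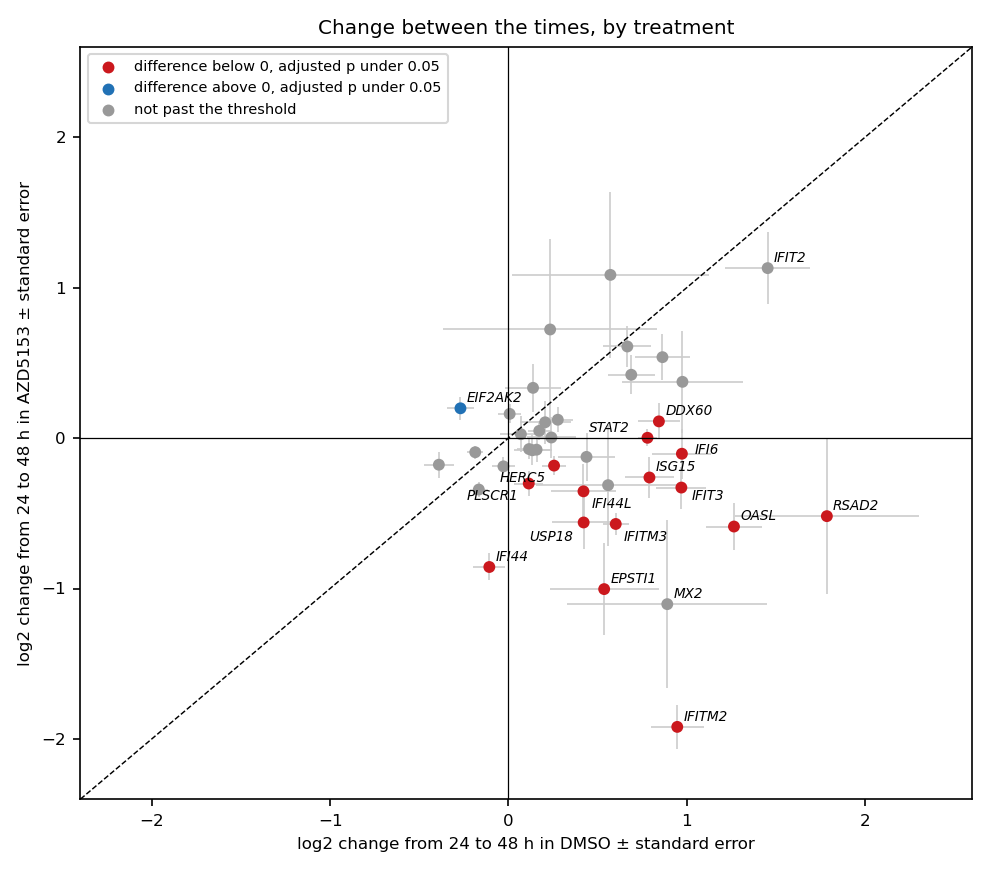
log2 change from 24 to 48 hours in DMSO (x axis) and in AZD5153 (y axis) with standard errors for the 40 tested members; the dashed line marks equal change. Most points lie to the right of 0 and below the line, *IFITM2* farthest below at 0.95 and -1.92, and the 16 members whose 2 changes differ past the threshold are colored.

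**Figure D5:**
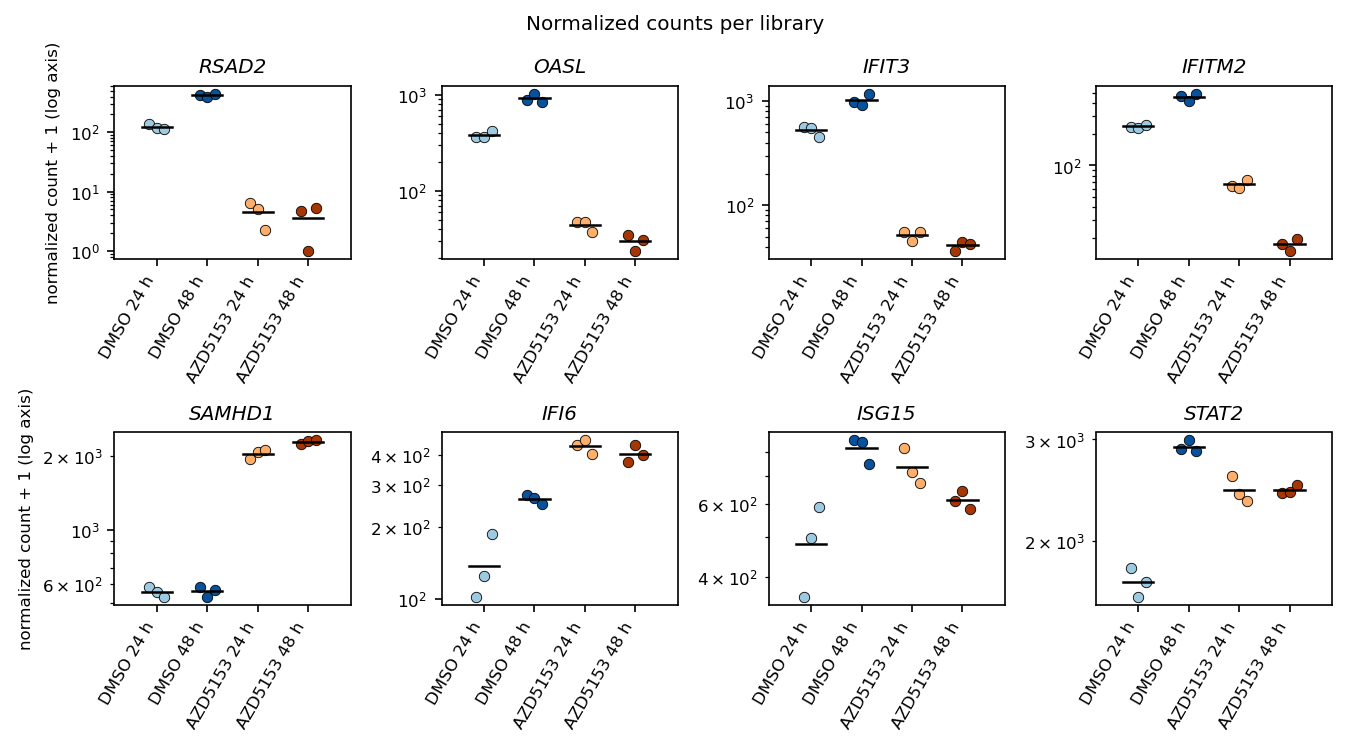
Normalized count + 1 (log axis) in each of the 12 libraries for 8 members, with the group mean as a bar. *RSAD2*, *OASL*, *IFIT3* and *IFITM2* are lower in every AZD5153 library, *SAMHD1* and *IFI6* are higher, and for *ISG15* and *STAT2* AZD5153 lies above DMSO at 24 hours and below it at 48 hours.

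The rest of the pathway was read from a list of 81 genes that are not members, 54 of which were tested. This list too was chosen with earlier results of these libraries known, so its counts and p-values are a description. The counts below stand beside the shares over all genes given above, 33.9% higher and 34.6% lower at 24 hours and 33.1% and 33.9% at 48 hours. Of 21 interferon genes, 14 had 0 reads in all libraries, *IFNG* among them, and 20 were not tested. *IFNB1* had 2 reads in all. The tested ligand was *IFNE*, an epithelial type I interferon, at 34.9 ± 5.9 normalized counts (SD, n = 3) with DMSO against 114 ± 34 with AZD5153 at 24 hours (log2 fold change 1.66 ± 0.27, limma adjusted p = 4.3e-05), and 37.5 ± 5.5 and 51.3 ± 14 at 48 hours (0.41 ± 0.27, limma adjusted p = 0.19).

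Of 4 tested receptor genes of 6, 2 were higher and 2 lower at both times. *IFNAR1*, the type I receptor chain, was higher (log2 fold change 0.27 ± 0.07, limma adjusted p = 0.0018 at 24 hours and 0.89 ± 0.07, limma adjusted p = 7.6e-09 at 48 hours), and so was *IFNGR1*. *IFNGR2*, the second interferon-gamma chain, was lower (-2.02 ± 0.16, limma adjusted p = 1.2e-08 and -0.83 ± 0.16, limma adjusted p = 0.00022), and so was *IFNLR1*. Of 5 kinases and further STATs, too few genes to set against those shares, 3 were higher and 1 lower at both times. *JAK1* was higher by 0.96 ± 0.05 and 0.79 ± 0.05 (limma adjusted p = 6.5e-11 and 6.9e-10), while *JAK2*, a kinase of the interferon-gamma receptor, was lower by -0.84 ± 0.12 and -1.30 ± 0.12 (limma adjusted p = 1.1e-05 and 7.6e-08).

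Of 12 genes that induce interferon, 11 were tested, with 3 higher and 5 lower at each time, near those shares. The 5 lower were the endosomal RNA receptor *TLR3* (log2 fold change -3.55 ± 0.25 and -3.97 ± 0.25, limma adjusted p = 2.9e-09 and 7.9e-10), the DNA-sensing adaptor *STING1* (-2.95 ± 0.16 and -3.13 ± 0.16, limma adjusted p = 1.6e-10 and 8e-11), the kinase *IKBKE*, the DNA sensor *CGAS* and the RIG-I relative *DHX58*. *MAVS*, the mitochondrial adaptor of the RNA sensors, was higher (0.15 ± 0.05 and 0.30 ± 0.05, limma adjusted p = 0.011 and 5.2e-05). Of 5 genes that limit interferon signaling, AZD5153 left 2 higher and 1 lower at the early time, and 3 higher and 2 lower at the late one, again too few genes for that. *SOCS3* was higher (1.40 ± 0.12 and 0.48 ± 0.12, limma adjusted p = 4e-08 and 0.0024).

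A further 32 interferon-stimulated genes outside the list gave a comparison, 28 of them tested. After 24 hours of AZD5153, 19 were lower and 2 higher (median -0.53), and after 48 hours 20 were lower and 3 higher (median -0.61), beside 34.6% lower and 33.9% higher over all genes at 24 hours and 33.9% and 33.1% at 48 hours. The listed genes had medians farther from 0, but both lists were chosen with earlier results of these libraries known. The difference was not tested. The ISRE core was in 12 of the 24 promoters found for these genes (50.0%), and the longer form ending in CT in 1 of the 24 (4.17%).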

How the data were processed

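RNA-Seq was measured in 12 libraries of SF8628 cells. Per the labels and methods, the authors used STAR for alignment to hg38, HTSeq for gene counts and DESeq2 for scaling (versions, annotation and strand setting are not given in the sources used here). The deposited values per library are a signal, gene counts divided by 1 size factor per library, and 100% were whole reads within 0.01. The same deposited table holds the authors' means (signal), log2 fold changes, standard errors and test statistics (a score) and p-values of AZD5153 against DMSO, which were not used. CUT&RUN and JQ1 data were not analysed here.

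Genes with a mean of at least 10 were tested on log2(normalized count + 1) with limma 3.58.1 (lmFit, eBayes with trend, all 4 groups in 1 fit, Benjamini-Hochberg at 0.05) in R 4.3.3, and the step was tested on simulated data. Fold values are ratios of group means. Error is the SD or the standard error of the fit. The labels do not say whether replicates were separate cultures, so p-values measure the spread between these libraries, which may be technical. The members, their roles and the other lists were chosen with earlier results of these data known. Values of every library are given for members whose log2 fold change over both times lay above 0, called or not. They are also given for the 8 largest decreases with a mean of at least 50 and for the 4 regulators. The members with the 6 smallest p for the difference between times have them too, and other members are given by role. Positions are from GENCODE 44 (60463 of 60664 identifiers found), and promoters from RefSeq. Alternatives were pseudocounts of 0.5 and 10, a minimum mean of 0 or 100, equal totals, quantile normalization, 7 stable genes, a replicate block, edgeR 4.0.16 and DESeq2 1.42.0 on the recovered reads, and leaving out each library. Some genes of the lists are not reported here by name.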

Additional observations from a re-analysis of the deposited data

Results flagged for a closer look

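For 16 members the AZD5153 effect at 48 hours minus that at 24 hours passed the limma threshold. Over all genes 10.1% passed below 0 and 14.4% above 0. The list was written with both effects known, so these values are a description. In 15 the effect at 48 hours lay below that at 24 hours on the log2 scale, by -2.87 in *IFITM2*, -2.30 in *RSAD2*, -1.85 in *OASL*, -1.54 in *EPSTI1*, -1.30 in *IFIT3*, -1.17 in *IFITM3*, -1.08 in *IFI6*, -1.05 in *ISG15*, -0.98 in *USP18*, -0.78 in *STAT2*, -0.78 in *IFI44L*, -0.75 in *IFI44*, -0.73 in *DDX60*, -0.44 in *HERC5* and -0.42 in *PLSCR1*. In *EIF2AK2* it lay above, by 0.47. The call was lost for *IFI44L* when any of 9 libraries was left out and in 3 other settings, for *RSAD2* when any of 6 was left out and in 2 other settings, and for *EPSTI1* in 2 settings. In *ISG15* and *STAT2* the effect was above 0 at 24 and below 0 at 48 hours, where the *ISG15* call was lost without AZD5153 replicate 3 or DMSO replicate 1, and in *IFI6* it stayed above 0. Single values that stand apart within a group were not looked for gene by gene, as each group had 3 libraries.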

How the results depend on the processing

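Of 1755 recomputed values for the 16 tested members given library by library, 38 lost the threshold, 12 reached it and 1705 kept their side of it, of which 11 that passed in neither case changed sign. None that passed it turned direction. The median at 24 hours was -1.505 with a minimum mean of 100 and -1.456 with a pseudocount of 10, that at 48 hours was -2.04 with equal totals, where the median of all genes moved to -0.121 and -0.168, and that of the change with time in DMSO was 0.266 with a minimum mean of 100. Quantile normalization gave 1 member lower with time in DMSO (4 in the text), and leaving out 1 library gave 2 to 4, the fewest without DMSO 48 hour replicate 2. Scaling to 7 stable genes gave 6 members lower with time in AZD5153 (10 in the text), and leaving out 1 library gave 6 to 12, the fewest without AZD5153 48 hour replicate 2. The difference between times lost its call for *RSAD2* without 1 of 6 libraries (AZD5153 24 hour replicates 1 and 2, DMSO 24 hour replicate 2 and each DMSO 48 hour replicate), with a pseudocount of 0.5 and with no minimum mean. For *IFI44L* it was lost when 1 of 9 libraries was left out (AZD5153 24 hour replicates 1 and 3, AZD5153 48 hour replicates 1 and 2, DMSO 24 hour replicates 2 and 3 and each DMSO 48 hour replicate) and in 3 other settings, and for *EPSTI1* in 2 settings. *OAS2* lost its rise in DMSO without DMSO 24 hour replicate 2 or 3 or any DMSO 48 hour replicate (limma adjusted p from 0.068 to 0.1), and *EPSTI1* its fall in AZD5153 without AZD5153 24 hour replicate 1 or 48 hour replicate 2 and in 5 other settings, edgeR and DESeq2 among them. *ISG15* at 48 hours did not pass without AZD5153 48 hour replicate 3 or DMSO 48 hour replicate 1. The causes were not tested. *EPSTI1* has no value with a minimum mean of 100.

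With the replicate number as a block, all 80 values kept their call, and 17 members rose with time in DMSO and 8 fell in AZD5153. Libraries of the same number did not deviate together (18 pairs, correlation from -0.151 to 0.0363), so the numbers do not pair them. *RSAD2* rests on 9 reads per AZD5153 group, and the 9 members under the minimum mean were not tested. Whether low depth or absent expression set those counts was not tested.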

Other observations

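Among the interferon-stimulated genes outside the list, the strongest decrease with AZD5153 was that of *GBP4*, a guanylate-binding protein, with 87.1 ± 8.2 normalized counts (SD, n = 3) in DMSO against 2.56 ± 2.2 at 24 hours, and 136 ± 30 against 4.17 ± 3.2 at 48 hours (log2 fold change -4.94 ± 0.58 and -4.95 ± 0.58, limma adjusted p = 1.7e-06 and 1.6e-06). *GBP3* was also lower (-2.18 ± 0.17 and -2.91 ± 0.17). *UBA7*, the enzyme that activates ISG15 before UBE2L6 and HERC5, was at 866 ± 114 in DMSO against 216 ± 14 at 24 hours, and at 1402 ± 110 against 175 ± 12 at 48 hours (-1.995 ± 0.10 and -2.99 ± 0.10). The nuclear DNA sensor *IFI16* was lower as well (-1.96 ± 0.09 and -2.65 ± 0.09). The helicase *HELZ2* (1.40 ± 0.12 and 1.21 ± 0.12) and *TOR1B* (1.21 ± 0.06 and 1.52 ± 0.06) were higher at both times. The choice of these 6 genes followed a look at their values, so the values are a description and support nothing.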
